A study of Mus musculus with 12 samples.

Results

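In MIN6 cells, a mouse insulin-secreting beta-cell line derived from an insulinoma, the 7 deposited genes Spry1, Spry2, Spry4, Spred1, Spred2, Spred3 and Errfi1 were followed across glucose and trimethylamine N-oxide (TMAO). They are 7 of the 54022 rows of the count and FPKM (fragments counted per length of gene and per library size) tables, taken by gene name, and all 7 were among the 16222 genes that passed the filter on low counts. The set was selected on its glucose response in these same libraries, namely the levels of Spry4 and Errfi1 in high against low glucose. The glucose changes of the 7 genes are therefore given as a description, with their standard errors and intervals but no test, whereas the TMAO comparisons were tested.

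Wild-type MIN6 cells received TMAO (100 nM, 18 h) or vehicle. After a short fast they were stimulated with 2.8 mM (low) or 16.8 mM (high) glucose for a time that the sources used here do not give. Each of the 4 groups, namely low glucose with vehicle, low glucose with TMAO, high glucose with vehicle and high glucose with TMAO, held 3 libraries from biological replicates of this 1 line, 12 in all. RNA was taken from whole cultures, so fewer cells expressing a gene and less RNA per cell cannot be told apart.

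The libraries held 16793162 to 22340542 counted fragments each, and the common biological coefficient of variation between replicates was 5.34%. All 12 listed beta-cell markers had a mean FPKM of at least 1. Of the alpha-cell markers Gcg, the glucagon gene, did (199.6 to 227.4 FPKM), and of 2 leukocyte markers only Cd68 did, with Ptprc at 0 in every library. Of the other cell types, Spp1 (duct, 34.1 to 42.1 FPKM) and Sst (delta cell, 0.535 to 2.11 FPKM) were the markers with a mean FPKM of at least 1, and Krt19, Sox9, Hhex, Prss2, Amy2b and Pdgfrb were at 0 in every library. Some marker levels did not overlap between glucose levels or, within a glucose level, between treatments. By single genes, 6.36% to 18.8% of all genes tested had groups without overlap in these comparisons. The summed level of the alpha-cell markers was 199.8 to 216 FPKM in the 6 low-glucose libraries and 222 to 227.6 FPKM in the 6 high-glucose libraries. The summed leukocyte level was 2.89 to 3.62 FPKM in low glucose with vehicle, 3.87 to 4.10 FPKM in low glucose with TMAO, 4.33 to 4.84 FPKM in high glucose with vehicle and 4.12 to 4.30 FPKM in high glucose with TMAO. With vehicle, the summed duct-cell level was 35.35 to 37.76 FPKM in low and 39.21 to 42.07 FPKM in high glucose, and the summed beta-cell level was 42380 to 45960 FPKM in low and 46110 to 47720 FPKM in high glucose, while with TMAO both overlapped between glucose levels. The summed delta-cell level in low glucose was 1.253 to 2.106 FPKM with vehicle and 0.535 to 1.20 FPKM with TMAO. In high glucose the summed acinar-cell level was 0 to 0.0557 FPKM with vehicle and 0.0565 to 0.0833 FPKM with TMAO. Ppy, the PP-cell marker, was at 0 FPKM with vehicle and 0.0892 to 0.119 FPKM with TMAO there. The part of these cell-type signals in the results was not tested. This includes the TMAO values of Spry4 and Spry1 in low glucose and of Errfi1 in high glucose.

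Growth factor receptors with tyrosine kinase activity switch on Ras, which passes the signal through Raf and MEK to the kinase ERK. Sprouty proteins (Spry1, Spry2, Spry4) are induced by this pathway and hold it back between receptor and Raf. Spred proteins are relatives that bring the Ras-inactivating protein neurofibromin to the membrane. Errfi1, also called Mig6, binds the kinase domain of the epidermal growth factor receptor family and blocks it. In beta cells ERK is also activated by glucose, through calcium entry.

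On GRCm38, the build of mm10, Spry1 (ENSMUSG00000037211) spans chr3:37639947-37644598 on the plus strand and Spry2 (ENSMUSG00000022114) spans chr14:105891947-105896819 on the minus strand. Spred1 (ENSMUSG00000027351) lies at chr2:117121374-117182279 on the plus strand, Spred2 (ENSMUSG00000045671) at chr11:19924375-20024026 on the plus strand and Spred3 (ENSMUSG00000037239) at chr7:29158829-29170411 on the minus strand. Errfi1 (ENSMUSG00000028967) lies at chr4:150853919-150868892 on the plus strand. These are the coordinates of the deposited tables, and for the 6 genes given here they equal those of GENCODE M21. Exons of Spred3 and of Ggn share 229 bases on opposite strands. Ggn had a mean of 109.2 counts per library and Spred3 490.5, and since the strand setting of the counting is not given in the sources used here, the values of Spred3 are uncertain. Spry1 likewise shares exon sequence with Gm42922 on the opposite strand, whose mean count was 2.33 against 171 for Spry1.

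Short elements were looked for in the bases just upstream of the transcription starts that RefSeq lists. RefSeq (GRCm38.p6) gave 7 start windows for 6 of the 7 genes and none for Spry4, which was not searched. In each window, 250 upstream bases were searched on both strands for 7 motifs. The motifs were the full cAMP response element TGACGTCA and its short form TGACG, which lies within it, the AP-1 site TGANTCA, the EGR site GCGNGGGCG, the ETS site CCGGAAG, the SRF CArG box and the TATA box TATAAA. The window of the first Errfi1 start held no match and is not shown. The windows of the second Errfi1 start, of Spry1 and of Spry2 are shown because their genes had higher levels in high glucose. They are given 5′ to 3′ along the gene, with any motif found in capitals. The Errfi1 window is chr4:150854820-150855069 on the plus strand, that of Spry1 is chr3:37639697-37639946 on the plus strand and that of Spry2 is chr14:105896820-105897069 on the minus strand.
Errfi1: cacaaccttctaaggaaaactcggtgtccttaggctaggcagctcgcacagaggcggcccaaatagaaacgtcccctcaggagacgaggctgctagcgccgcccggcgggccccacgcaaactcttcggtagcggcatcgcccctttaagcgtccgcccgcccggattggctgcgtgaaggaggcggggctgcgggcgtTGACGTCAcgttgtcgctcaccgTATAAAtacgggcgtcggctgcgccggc
Spry1: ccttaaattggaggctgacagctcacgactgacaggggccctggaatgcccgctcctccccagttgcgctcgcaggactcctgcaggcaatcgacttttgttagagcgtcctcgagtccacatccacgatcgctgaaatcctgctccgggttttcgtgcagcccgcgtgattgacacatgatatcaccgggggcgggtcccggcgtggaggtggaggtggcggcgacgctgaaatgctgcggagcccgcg
Spry2: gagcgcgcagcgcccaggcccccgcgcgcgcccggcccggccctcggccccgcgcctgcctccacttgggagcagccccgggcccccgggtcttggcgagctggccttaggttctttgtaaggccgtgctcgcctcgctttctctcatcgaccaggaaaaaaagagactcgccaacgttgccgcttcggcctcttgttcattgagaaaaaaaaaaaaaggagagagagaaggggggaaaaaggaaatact

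In the Errfi1 window the full cAMP response element stands 51 bases and the TATA box 28 bases before the start. This start lies in an intron of the longer Errfi1 transcript. Over all 32851 windows of the same length, 1.55% held the full cAMP response element and 12.4% the TATA box. The window of the other Errfi1 start held neither and differed in composition, with 38% G or C and 1 CG dinucleotide against 64.8% and 30. Counts per gene do not separate transcripts from the 2 starts. In the Spry1 and Spry2 windows none of the 7 motifs was found. The Spred2 window held the short form of the cAMP response element, as did 17.8% of all windows, and the Spred1 and Spred3 windows held no match. The RefSeq start used for Spred3 lies inside the gene span given above, as does part of the Spred2 window, so bases upstream of the outermost starts of these genes were not searched in full. The other motifs had matches in 6.75% (AP-1), 4.7% (EGR), 6.91% (ETS) and 1.47% (CArG box) of all windows. Each match is a match of letters, and whether a factor binds there was not measured.

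The members covered a wide range of levels. In low glucose with vehicle, Errfi1 was the most abundant per length with 15.3 ± 0.37 FPKM (SD, n = 3), followed by Spred2 with 6.97 ± 0.336 FPKM (SD, n = 3) and Spred3 with 4.22 ± 0.12 FPKM (SD, n = 3). Spry1, Spred1 and Spry2 lay between 1.22 and 1.60 FPKM, and Spry4 was lowest with 0.277 ± 0.074 FPKM (SD, n = 3). The libraries of Spry1 and Spred1 overlapped, whereas all other neighbours in this order were separate. The order was the same with TMAO, where Spred1 and Spry2 overlapped. In high glucose with vehicle the order was Errfi1, Spred2, Spry1, Spred3, Spry4, Spry2 and Spred1, and only Spry1 and Spred3 overlapped. With TMAO in high glucose the order was again the same and no neighbours overlapped. Spry4 thus moved from the seventh to the fifth place and Spred1 from the fifth to the seventh.

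**Figure D1:**
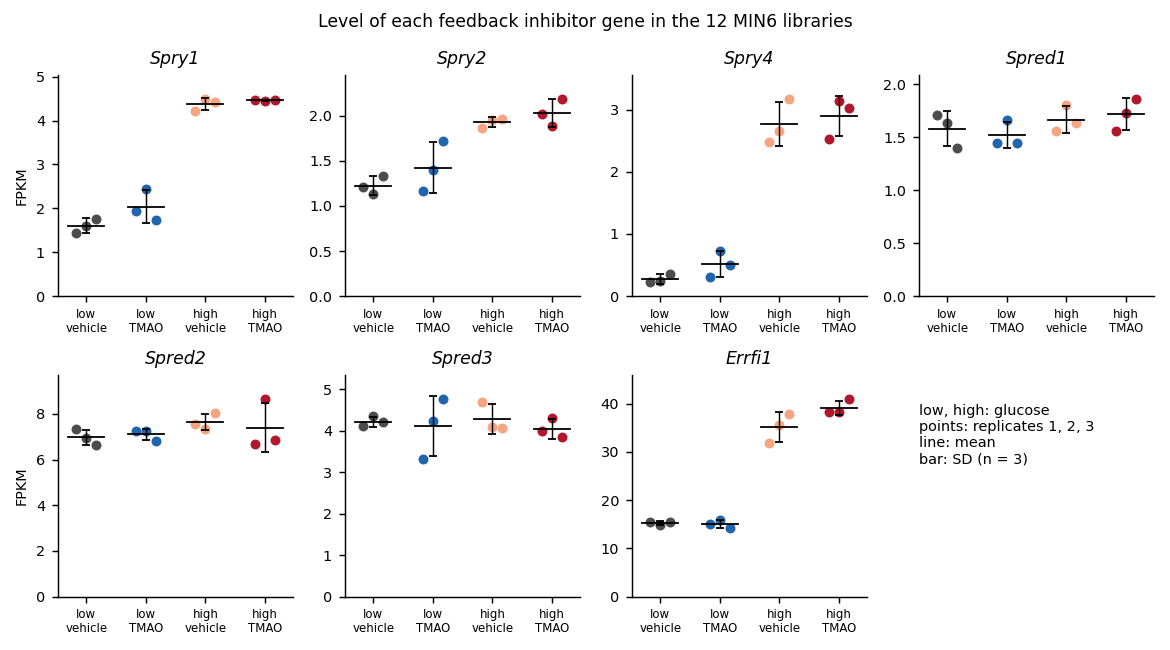
FPKM of each of the 7 genes (vertical axes from 0) in the 12 libraries, by glucose level and treatment; points are libraries, horizontal lines group means and bars the SD (n = 3). Spry4, Spry1, Spry2 and Errfi1 lie higher in high glucose with either treatment, while the points of Spred1 and Spred3 overlap between glucose levels.

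The first question was how the 7 genes stood in high against low glucose. Spry4, Spry1, Spry2 and Errfi1 were higher in high glucose with both treatments, by 9.95-fold, 2.74-fold, 1.58-fold and 2.30-fold with vehicle. The 3 Spred genes had log2 fold changes between 0.022 and 0.13 with vehicle. The median log2 fold change was 0.66 over the 7 genes with vehicle and 0.51 with TMAO, and 0.0021 and 0.0012 over all genes tested. Nothing is read from this gap, because the set was chosen on this response. The comparisons with vehicle and with TMAO use different libraries. Since the choice of the set drew on these same libraries, neither is an independent repeat of the other.

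Spry4 (ENSMUSG00000024427) lies at chr18:38586268-38601268 on the minus strand in the deposited table, which differs from its GENCODE M21 coordinates, and it showed the greatest change of the 7. With vehicle it had 0.229, 0.239 and 0.362 FPKM in low glucose and 2.48, 2.65 and 3.17 FPKM in high glucose. These come from 20, 21 and 31 fragments in low glucose and 213, 248 and 248 in high glucose. Even the highest low-glucose library was far below the lowest high-glucose library, and the low-glucose levels rest on few fragments. The log2 fold change was 3.31 (standard error 0.21), which is a 9.95-fold difference with a 95% confidence interval from 7.32 to 13.5. By log2 fold change, Spry4 ranked number 3 of the 16222 genes with vehicle and number 12 with TMAO. With TMAO its levels were 0.314, 0.726 and 0.501 FPKM in low glucose and 2.53, 3.13 and 3.02 FPKM in high glucose. The log2 fold change there was 2.49 (standard error 0.19), or 5.63-fold with a 95% confidence interval from 4.28 to 7.41. The groups were again separate, and the low-glucose libraries spread more widely than with vehicle.

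Spry1 had an intermediate change. Its levels with vehicle were 1.43, 1.60 and 1.77 FPKM in low glucose and 4.22, 4.49 and 4.41 FPKM in high glucose. With TMAO they were 1.93, 2.45 and 1.75 FPKM in low glucose and 4.46, 4.45 and 4.46 FPKM in high glucose. High-glucose libraries lay above every low-glucose library for both treatments. The 3 high-glucose libraries with TMAO had nearly the same level (SD 0.0053 FPKM). These values come from 218, 290 and 222 fragments, and nothing is read from their closeness. The log2 fold change was 1.45 (standard error 0.12) with vehicle and 1.12 (standard error 0.12) with TMAO.

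For Spry2, the differences were smaller. With vehicle, 1.21, 1.13 and 1.34 FPKM were measured in low glucose and 1.87, 1.95 and 1.96 FPKM in high glucose, from 45 to 83 fragments per library. The values with TMAO were 1.16, 1.40 and 1.71 FPKM in low glucose and 2.02, 1.88 and 2.18 FPKM in high glucose. The levels did not overlap with either treatment, but with TMAO the gap between the nearest libraries, 1.71 and 1.88 FPKM, was narrow. The log2 fold change was 0.66 (standard error 0.18) with vehicle and 0.51 (standard error 0.17) with TMAO.

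Errfi1 was the member with the highest level and the smallest relative spread between replicates (coefficient of variation within groups 5.08%, against 22.7% for Spry4). With vehicle it had 15.5, 14.9 and 15.5 FPKM in low glucose and 31.8, 35.6 and 38.0 FPKM in high glucose. With TMAO it had 15.0, 15.9 and 14.2 FPKM in low glucose and 38.2, 38.3 and 40.9 FPKM in high glucose. All 6 low-glucose libraries lay below 16 FPKM and all 6 high-glucose libraries above 31 FPKM. Its log2 fold change was 1.20 (standard error 0.058), or 2.30-fold with a 95% confidence interval from 2.12 to 2.50, with vehicle. It was 1.38 (standard error 0.058), or 2.60-fold with an interval from 2.40 to 2.83, with TMAO.

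The Spred genes stayed within narrow ranges across the 12 libraries, with 1.40 to 1.86 FPKM for Spred1, 6.66 to 8.63 FPKM for Spred2 and 3.33 to 4.76 FPKM for Spred3. With vehicle, the log2 fold change of Spred1 was 0.078 (95% confidence interval -0.14 to 0.30), that of Spred2 was 0.13 (-0.026 to 0.29) and that of Spred3 was 0.022 (-0.17 to 0.22). The 3 Spred2 libraries in high glucose with vehicle (7.56, 7.33 and 8.05 FPKM) lay just above the 3 in low glucose (7.33, 6.93 and 6.66 FPKM). Groups that do not overlap were found for 5 of the 7 genes with vehicle and for 4 with TMAO, while 18.8% and 18.4% of all genes tested showed this, and nothing is read from the members' counts because the set was chosen on this response. With TMAO the log2 fold changes were 0.18 for Spred1, 0.066 for Spred2 and -0.016 for Spred3. The sign for Spred3 turned without some single libraries in both comparisons, as did that of Spred1 with vehicle and of Spred2 with TMAO.

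Spry3, the fourth Sprouty gene, was not in the set and was looked up after the values of the others had been seen. It had 1.52 ± 0.144 FPKM (SD, n = 3) in low glucose with vehicle and 1.56 ± 0.235 FPKM (SD, n = 3) in high glucose with vehicle. Its log2 fold change was 0.048 (95% confidence interval -0.23 to 0.33) with vehicle and 0.24 (-0.039 to 0.52) with TMAO, and no test compared it with the other genes.

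**Figure D2:**
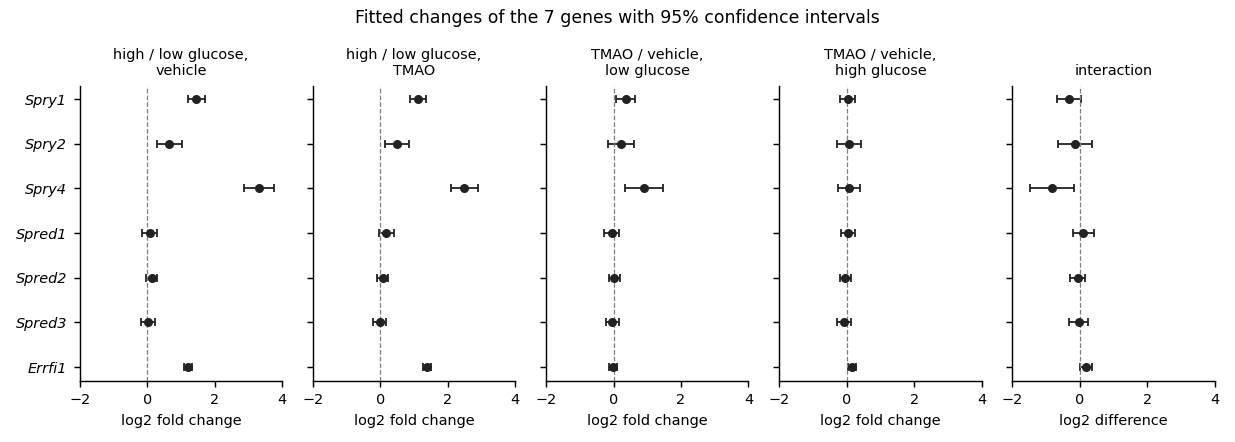
Log2 fold change of each gene (horizontal axis, points, with the 95% confidence interval as a bar) in the 5 comparisons; the last panel is the difference between the TMAO effect in high and in low glucose. The glucose panels range up to 3.31 for Spry4, and in the TMAO panels the point farthest from 0 is Spry4 in low glucose at 0.89.

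The second question was whether TMAO moved these genes at either glucose level. None of the 7 was called by edgeR's quasi-likelihood test with TMAO in low glucose, with TMAO in high glucose or for the interaction, that is, the difference between the TMAO effects in high and low glucose. At an unadjusted p under 0.05, edgeR gave 2 of the 7 genes in low glucose (Spry4 and Spry1), 1 in high glucose (Errfi1) and 2 for the interaction (Spry4 and Errfi1), and DESeq2 and limma also called 0 members. Over all genes tested, 0.00616% were called in low glucose, 0% in high glucose and 0% for the interaction, with 357, 868 and 545 genes at an unadjusted p under 0.05. TMAO thus gave 1 call in low glucose and 0 in high glucose over all genes.

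In low glucose, the Spry4 levels with TMAO (0.314, 0.726 and 0.501 FPKM) were higher on average than with vehicle (0.229, 0.239 and 0.362 FPKM), with 28, 65 and 43 fragments against 20, 21 and 31. One TMAO library lay below the highest vehicle library, so the groups overlapped. This came to a log2 fold change of 0.89 (standard error 0.27, 95% confidence interval 0.33 to 1.45), with an adjusted p of 0.9999 over all genes tested by edgeR's quasi-likelihood test. With an exact two-sided permutation test on FPKM, p = 0.2 was obtained, where 3 libraries against 3 cannot go below 0.1. The value rested in part on TMAO replicate 2, without which it was 0.55. The range was 0.55 to 1.2 over fits without 1 of the 12 libraries, and with limma on log2(FPKM + 1) the value was 0.24.

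Spry1 also had a higher mean with TMAO in low glucose, with 2.04 ± 0.366 FPKM against 1.60 ± 0.171 FPKM (SD, n = 3 each). Its groups overlapped by 1 TMAO library at 1.75 FPKM, just under the highest vehicle library at 1.77 FPKM. The log2 fold change was 0.35 (standard error 0.13), with an adjusted p of 0.9999 by edgeR and p = 0.2 by the exact permutation test. Without TMAO replicate 2 it was 0.20. For Spry2 the log2 fold change was 0.22 (95% confidence interval -0.16 to 0.60), with 0.065 without TMAO replicate 3 and 0.35 without TMAO replicate 1. For Errfi1 and the 3 Spred genes it lay between -0.056 and 0.028. None of the 7 genes had separate groups in low glucose, where 6.36% of all genes tested did.

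In high glucose, the Errfi1 levels with TMAO (38.2, 38.3 and 40.9 FPKM) all lay above those with vehicle (31.8, 35.6 and 38.0 FPKM), though the nearest libraries, 38.0 and 38.2 FPKM, differed little. Its log2 fold change was 0.16 (standard error 0.055), or 1.11-fold with a 95% confidence interval from 1.03 to 1.20. By edgeR's quasi-likelihood test the adjusted p was 0.9102, and the exact permutation test gave p = 0.1, the smallest it can give here. Such separate groups were found for 11.1% of all genes tested and for this 1 of the 7. Without vehicle replicate 1 the value was 0.091. Spry4 had a log2 fold change of 0.071 (95% confidence interval -0.25 to 0.39) and Spry1 one of 0.026 (-0.20 to 0.25) in high glucose. That of Spry4 moved by over 1.5 times without any 1 of the 6 high-glucose libraries, from 0.00069 without vehicle replicate 1 to 0.18 without vehicle replicate 3. The other 4 genes lay between -0.078 and 0.070.

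For the interaction, Spry4 had a log2 difference of -0.82 (standard error 0.31, 95% confidence interval -1.47 to -0.18), in other words a smaller fitted glucose difference with TMAO (2.49) than with vehicle (3.31). Its adjusted p was 0.9998 by edgeR's quasi-likelihood test. The interaction of Errfi1 was of the opposite sign, at 0.18 (standard error 0.082), with an adjusted p of 0.9998 by edgeR. Spry1 had -0.33 (95% confidence interval -0.68 to 0.025). Without low-glucose TMAO replicate 2 the value of Spry4 was -0.48 and that of Spry1 -0.18, and without high-glucose vehicle replicate 1 that of Errfi1 was 0.11. With limma on log2(FPKM + 1) the value of Spry4 was -0.19. A difference in glucose response between the treatments was therefore not called for any of the 7 genes.

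The pathway that these inhibitors act on was described with 7 lists holding 130 genes, of which 112 were tested. The lists were written with earlier results of these data known and are no independent evidence. With vehicle, 15 of the 112 genes were called higher and 3 lower in high glucose at an adjusted p under 0.05, where 1.99% and 1.31% of all genes tested were. With TMAO, 15 were called higher and 2 lower, where 2.0% and 1.64% of all genes tested were, and 17 genes were called with both treatments. The median log2 fold change over the 112 genes was 0.010 with vehicle and -0.0025 with TMAO. No test compared the lists with each other.

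Among receptors and ligands, 0 of 21 were called with either treatment. The 2 most abundant were Vegfa, a growth factor for blood vessels, with a mean of 86.1 FPKM, and Ret, the receptor of the GDNF family, with 28.5 FPKM. Vegfa had a log2 fold change of 0.062 with vehicle (95% confidence interval -0.042 to 0.17) and Ret one of 0.0097 (-0.082 to 0.10). Egfr, the receptor that Errfi1 binds, was looked up after its values had been seen and had a mean of 11.8 FPKM and a log2 fold change of -0.076 (-0.18 to 0.026) with vehicle. In the list of adaptors, Ras and its regulators, 2 of 21 genes were called lower with vehicle and 1 with TMAO. Cblb, a ubiquitin ligase that removes activated receptors, fell by 0.32 (standard error 0.061) on the log2 scale with vehicle and by 0.34 (standard error 0.061) with TMAO. Frs2, a docking protein of fibroblast growth factor receptors, fell by 0.23 (standard error 0.063) with vehicle and had a log2 fold change of -0.080 with TMAO, which was not called.

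Of Raf, MEK, ERK and their scaffolds, 0 of 18 were called with either treatment. The 2 most abundant were Pebp1, which binds and inhibits Raf, with a mean of 156.8 FPKM, and Mapk3, which encodes ERK1, with 106.2 FPKM. Their log2 fold changes with vehicle were 0.096 (95% confidence interval 0.0010 to 0.19) and -0.039 (-0.13 to 0.057).

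Of the ERK target genes, 7 of 19 were called higher and 1 lower with each treatment. Fos and Fosl2, subunits of the AP-1 transcription factor, had log2 fold changes of 2.76 (standard error 0.14) and 2.50 (standard error 0.082) with vehicle. Egr1, an early response transcription factor, had one of 2.59 (standard error 0.068). Jun, the partner of Fos, was called lower at -0.25 (standard error 0.065) with vehicle and -0.42 (standard error 0.065) with TMAO. The median of the list was 0.19 with vehicle and 0.12 with TMAO.

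The dual-specificity phosphatases, which remove phosphate from ERK and other MAP kinases, were called higher in 6 of 9 cases with each treatment, and 0 were called lower. Dusp6, which acts on ERK in the cytoplasm, had a log2 fold change of 2.44 (standard error 0.16) with vehicle and 1.71 (standard error 0.14) with TMAO. Dusp1, in the nucleus, had 1.85 (standard error 0.061) and 1.81 (standard error 0.060). Dusp4, also nuclear, had 1.16 (standard error 0.051) and 1.02 (standard error 0.051). The median of the 9 genes was 1.07 with vehicle and 0.90 with TMAO.

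Of the 15 other inhibitors of receptor signalling, 1 was called with each treatment, namely Trib1, a pseudokinase that serves protein degradation, with log2 fold changes of 0.79 (standard error 0.070) with vehicle and 0.75 (standard error 0.069) with TMAO. Of the 9 binding partners and modifiers of the 7 proteins, 1 was called with each treatment. This was Siah2, a ubiquitin ligase that targets Sprouty proteins for degradation, at 0.40 (standard error 0.051) with vehicle and 0.34 (standard error 0.051) with TMAO.

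**Figure D3:**
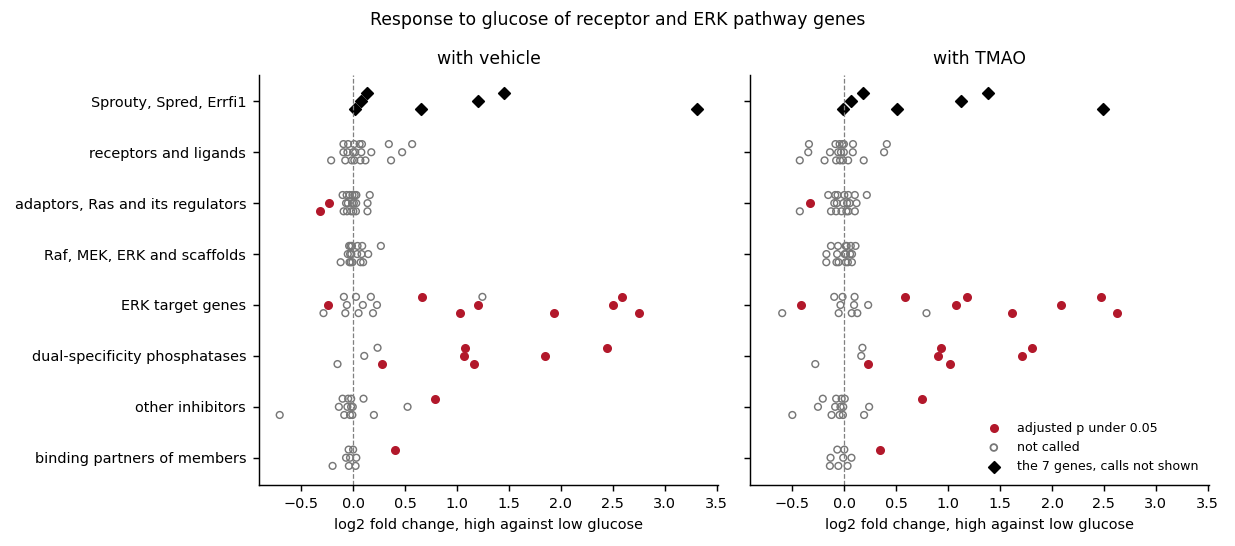
Log2 fold change in high against low glucose (horizontal axis) of the 7 genes (diamonds, calls not shown) and of the 112 tested pathway genes (circles), 1 point per gene and 1 row per list, with vehicle (left) and TMAO (right); filled circles have an adjusted p under 0.05. Filled circles to the right of 0 number 7 of the 19 ERK targets and 6 of the 9 phosphatases, and 0 of the 21 receptors and ligands and 0 of the 18 Raf, MEK and ERK genes are filled.

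For TMAO in low glucose, 1 of the 112 pathway genes was called, Egr1, with a log2 fold change of 0.52 and an adjusted p of 0.00207 by edgeR. Its normalized counts were 316.6, 346.8 and 316.7 with vehicle and 450.2, 517.6 and 437 with TMAO, without overlap, and 0 pathway genes were called without TMAO replicate 2. At an unadjusted p under 0.05 there were 9 of the 112 genes, and 357 of all 16222 genes tested. Of the 9, 4 were phosphatases, and none of these 4 was called. Dusp6 had normalized counts of 34.7, 46.4 and 37.6 with vehicle and 76.0, 78.4 and 58.7 with TMAO, without overlap, and a log2 fold change of 0.84 (standard error 0.18, adjusted p = 0.498, edgeR). For TMAO in high glucose and for the interaction, 0 of the 112 genes were called, with 7 and 10 at an unadjusted p under 0.05. Over all 16222 genes tested, 868 and 545 were at an unadjusted p under 0.05 in these comparisons.

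The genes whose pattern over the 12 libraries was most like that of Spry4 were sought among the 12302 genes with a mean of at least 50 counts. Likeness was the root mean square difference between log2 normalized counts, each centred on the gene's mean, so that 0 means the same pattern. The nearest were Nr4a1 (0.389), a nuclear receptor, Fos (0.427), Egr1 (0.431), Fosl2 (0.470) and Cebpd (0.473), a C/EBP transcription factor. In the 6 libraries with vehicle, Nr4a1 had 114.1, 122.5 and 99.5 normalized counts in low glucose and 920.1, 850.0 and 1137 in high glucose. Its log2 fold change of 3.11 with vehicle was close to that of Spry4. With TMAO it was 2.97, against 2.49 for Spry4, and among the 5 nearest genes Cebpd had 3.26 and Egr1 2.09.

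The genes nearest to Errfi1 were Fam46a (0.108), Zic5 (0.118), a zinc finger transcription factor, Per1 (0.121), a component of the circadian clock, Gem (0.127), a small GTPase that restrains calcium channels, and Tgif1 (0.132), a homeobox repressor. Their log2 fold changes with vehicle ran from 1.15 to 1.52, around the 1.20 of Errfi1. The difference between Spry4 and Errfi1 themselves was 0.921, so that each was nearer to other genes than to the other. Distances to Spry4 were larger than those to Errfi1, and Spry4 had the larger spread between replicates. Spry4, Errfi1 and the genes nearest to them all shift with glucose, so likeness here includes the size of that shift. The distance between Spry4 and Errfi1 thus includes the gap between their log2 fold changes.

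**Figure D4:**
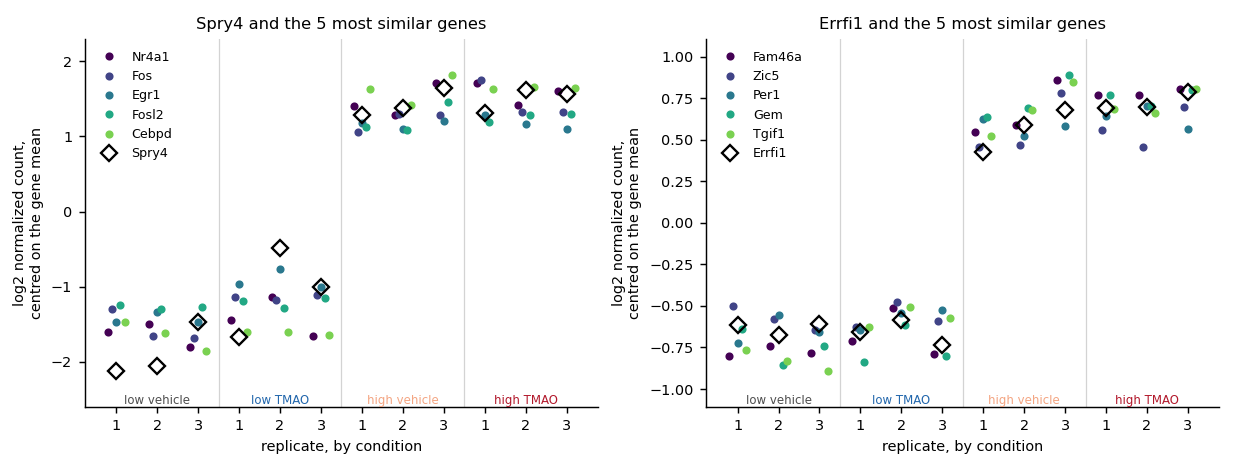
Log2 normalized counts, centred on each gene's mean (vertical axis), of Spry4 (left, open diamonds) and Errfi1 (right, open diamonds) with the 5 most similar genes (filled points), in each of the 12 libraries by condition and replicate number. All genes shown are low in the 6 low-glucose and high in the 6 high-glucose libraries, and Spry4 is lowest in 2 of the low-glucose vehicle libraries.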

How the data were processed

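MIN6 RNA was poly-T selected and sequenced paired-end. The authors deposited counts of fragments per gene, without normalization, and FPKM values, which were found to be counts scaled by gene length and by a total that lay within 1.37% of each library's sum of counts. The submitters' processing notes name HISAT2 2.0.5, featureCounts 1.5.0-p3, DESeq2 1.16.1 and mm10. Counts (16793162 to 22340542 per library) were analysed with edgeR 4.0.16 in R 4.3.3: filterByExpr, TMM, and the robust quasi-likelihood test on all 12 libraries with 4 group means. Adjusted p-values are Benjamini-Hochberg values over 16222 genes, called under 0.05, for 5 comparisons. Standard errors were taken from the log2 fold change and the F statistic. Normalized counts are scaled by TMM library sizes, and likeness adds 0.5 counts before the log2. Single values were compared by exact permutation.

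The 7 genes and all lists were chosen with earlier results of these data known. From each pathway list the text names up to 3 called genes with the largest change in each direction with vehicle, or the 2 most abundant where none was called, every gene called for TMAO, and the 5 genes most like Spry4 and Errfi1. The fits were also run on counts simulated with known changes and with the spread that the fit itself had estimated. Such a run cannot show whether the model suits the real replicates. Alternatives were DESeq2 1.42.0 (size factors and Wald test), no filter, at least 10 counts in every library, limma 3.58.1 on log2 FPKM with a pseudocount of 1 or 0.1, only the libraries compared, the replicate block and each library left out. Within each group, replicates differed by more than sampling noise (chi-square per gene 2.4 to 6.62). Figures were drawn with matplotlib 3.10.9.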

Additional observations from a re-analysis of the deposited data

How the results depend on the processing

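The number of the 7 genes called stayed at 0 for both TMAO comparisons and the interaction under every alternative run, the block included. Spry1, Spry2, Spry4 and Errfi1 had higher levels in high glucose, with vehicle and with TMAO, under every alternative run. Limma on log2(FPKM + 1) lowered the glucose change of Spry4 to 1.56 with vehicle and 1.37 with TMAO, its TMAO change in low glucose to 0.24 and its interaction to -0.19. A pseudocount understates the change of genes with low values. The same setting gave Spry2 glucose changes of 0.40 with vehicle and 0.33 with TMAO, TMAO changes in low glucose of 0.22 for Spry1 and 0.12 for Spry2, and interactions of -0.20 for Spry1 and -0.071 for Spry2. For TMAO in low glucose, the 1 pathway gene called became 2 with no filter on low counts (Egr1 and Dusp6), 0 with limma at either pseudocount, and 0 to 1 with single libraries left out. For the interaction, the 0 pathway genes called became 1 (Egr1) with no filter, and 0 to 1 with single libraries left out (1 without high-glucose TMAO replicate 1). The causes of these changes were not tested.

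Signs turned only with single libraries left out, for values near 0. For glucose with vehicle, the ranges were -0.0044 to 0.14 (Spred1) and -0.049 to 0.056 (Spred3). For glucose with TMAO they were -0.070 to 0.14 (Spred2) and -0.15 to 0.10 (Spred3). For TMAO in low glucose they were -0.14 to 0.0033 (Spred1), -0.0036 to 0.064 (Spred2), -0.16 to 0.091 (Spred3) and -0.062 to 0.015 (Errfi1). For TMAO in high glucose they were -0.016 to 0.11 (Spred1) and -0.17 to 0.030 (Spred2). Other small TMAO changes in high glucose kept their sign but varied in size, from 0.0031 to 0.045 for Spry1, 0.014 to 0.13 for Spry2 and -0.13 to -0.0055 for Spred3. For the interaction, ranges that changed sign were -0.28 to 0.0049 (Spry2), -0.20 to 0.0019 (Spred2) and -0.17 to 0.081 (Spred3).

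By the rule that every same-numbered pair of a comparison should correlate over 0.1, replicate numbers do not pair the libraries. Of 18 pairs 2 did, with a range of -0.036 to 0.20. Both were pairs of low-glucose vehicle and TMAO libraries (0.202 for replicate 1 and 0.135 for replicate 3), while replicate 2 of these groups had 0.0229. With the replicate number as a block, the log2 fold change of Spry4 for TMAO in low glucose was 0.89, and no call of a member changed.

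With 20 to 31 fragments of Spry4 in low glucose with vehicle, its changes that involve low glucose had the largest standard errors of the 7.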
